A study of Mus musculus with 11 samples.

Results

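The 40 genes described here make cholesterol and long-chain fatty acids, control that synthesis, or move, store and clear sterols. They were taken as a fixed list of gene symbols, matched by Ensembl ID to the per-sample count tables. The rule uses no measured value, but the list was drawn up with earlier results of these data known. All 40 were found among the 48709 genes of the tables, and all 40 were among the 17365 genes with enough counts to be tested. RNA sequencing was done on primary hippocampal neurons from E17 embryos of CD1 mice, cultured from pooled hippocampi. At day 10 in vitro the cultures received lipid nanoparticles loaded with a miR-181a-5p mimic (5 samples) or with a negative control oligonucleotide (6 samples), and RNA was collected at day 12, after 48 hours. Per the methods of the study, ApoE4 protein was supplied along with the particles, so both groups were exposed to particles and to this protein. The labels do not say whether the samples came from separate cultures, so p-values measure the spread between these samples, which may be technical.

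Cholesterol is built from acetyl-CoA through mevalonate, isoprenoid units, squalene and lanosterol. The brain makes nearly all of its own cholesterol, because lipoproteins of the blood do not cross the blood-brain barrier, and astrocytes supply part of it to neurons on particles that contain apolipoprotein E. When sterol in the endoplasmic reticulum is low, SCAP escorts the SREBP transcription factors to the Golgi for cleavage, and the cleaved factors switch on the synthesis genes. INSIG proteins hold SCAP back when sterol is high. The LXR nuclear receptors sense oxysterols and switch on genes of sterol export.

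The strand added as the mimic has the letters of the mature mouse miR-181a-5p (RefSeq; the mature strand lies on GRCm38.p6 at chr1:137966468-137966490 and, from a second copy, at chr2:38852741-38852763, both on the plus strand). It is shown beside the negative control because the control has another seed. Capitals mark nucleotides 2 to 8, the seed, in both.
miR-181a-5p mimic: aACAUUCAacgcugucggugagu
negative control: uCACCGGGuguaaaucagcuug
The match to the mimic's seed in a messenger RNA is TGAATGT. In the longest annotated 3′ UTR (GENCODE release M21), 7 of the 40 genes had at least 1 such match (17.5%), against 18.5% of the 14489 tested genes with a 3′ UTR. These were Fdft1, Nsdhl, Hsd17b7, Insig2, Scd1, Soat1 and Cyp46a1. Of the 11 genes of the list called lower in mimic samples (below), 1 had a match (9.09%), namely Scd1, while 40.8% of the 294 tested genes with a 3′ UTR and a lower call had one. The sets differed in median 3′ UTR length: 1968 bases for those 11 genes, 2692 for the 294, 1505 for the list and 1201 for the tested genes. Neither these shares nor those given below for the strongest type of site were adjusted for length. The site of Scd1 is shown with 11 bases on either side, with the match in capitals, followed by the sites of Fdft1 and Nsdhl, which were not called. They lie on GRCm38 at chr19:44395418-44395446 (minus strand), chr14:63145488-63145516 (minus strand) and chrX:72957992-72958020 (plus strand).
Scd1: cagtttccagaTGAATGTactaatagctt
Fdft1: cctcagccttcTGAATGTacgagttatag
Nsdhl: caaagtattgaTGAATGTaatccccaatc
In all 3 the match is followed by an A, a feature of the strongest type of site. Such a site was found in 5 of the 40 genes (12.5%), against 6.0% of the tested genes with a 3′ UTR. A match of letters does not show that the site is bound.

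Most of the list was slightly lower in the neurons given the mimic. Of the 40 genes, 37 had a log2 fold change below 0 (mimic against control, edgeR quasi-likelihood fit; 36 with upper-quartile scaling, where Fads1 turned positive), with a median of -0.077, whereas 50.1% of all 17365 tested genes were below 0 and their median was -0.00015. At a Benjamini-Hochberg adjusted p under 0.05, 11 of the 40 genes fell (27.5%) and 1 rose (2.5%). Over all tested genes 1.77% were called lower and 1.08% higher. The list is well expressed, and among the 9673 tested genes that averaged 10 CPM or more (CPM is a count divided by the scaled library size) 2.89% were called lower and 1.08% higher; 37 of the 40 genes reach that level. DESeq2 called 11 of the 40 lower and 1 higher, against 2.0% and 1.25% of all tested genes. At an unadjusted p under 0.05 in edgeR, 22 of the 40 were lower and 1 higher, against 8.41% and 7.3% of all tested genes. The genes that fell were Mvk, Pmvk, Mvd, Fdps, Sqle, Lss, Sc5d, Acaca, Scd1, Scd2 and Stard4, and the gene that rose was Abcg1. In 7 of the 40 genes every mimic sample lay below every control sample, and in 0 the groups separated upward, against 1.73% and 1.16% of all tested genes. The changes were small. Scd2 fell by 6.33% and Scd1 fell by 15.4%, the least and the most among the called genes, and Abcg1 rose by 12.5%.

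**Figure D1:**
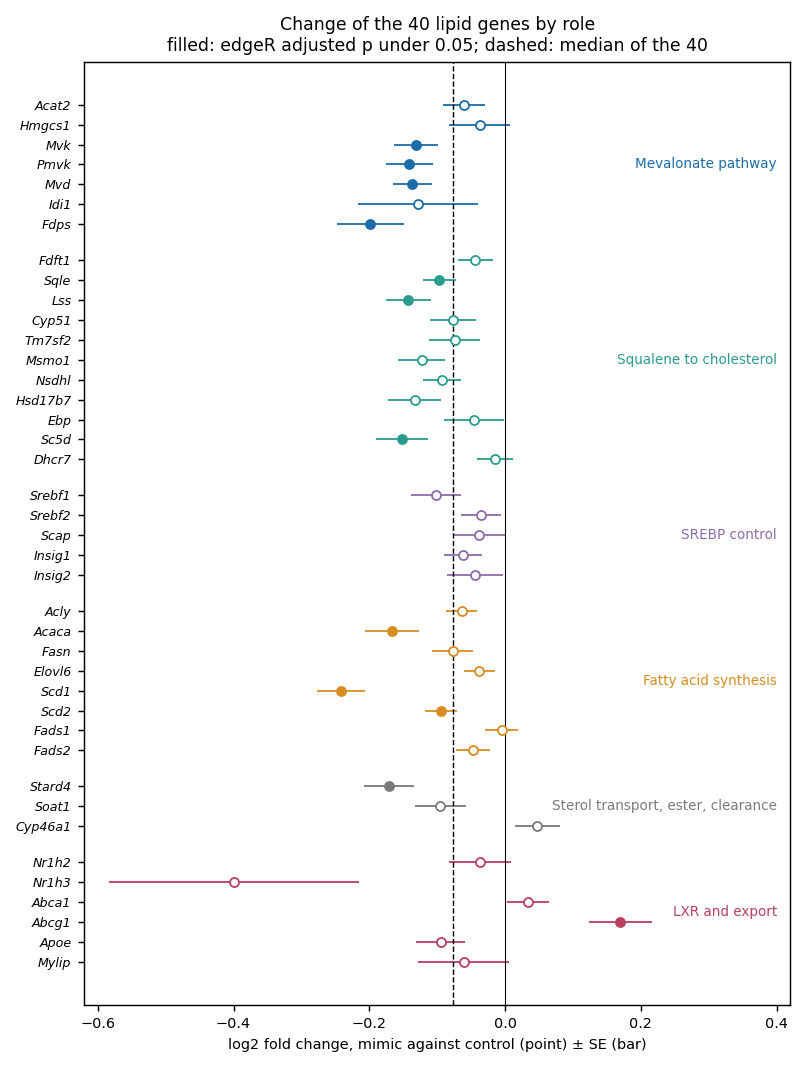
Log2 fold change of each of the 40 genes (x axis, mimic against control, point ± SE), ordered by role. Filled points passed the edgeR test and the dashed line is the median of the list at -0.077; only Cyp46a1, Abca1 and Abcg1 lie right of 0, and Nr1h3, the lowest point, has the widest bar.

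The shift was seen in every library. When the log2 CPM of each gene was taken relative to its mean over the 11 samples and averaged over the 40 genes, the control samples had a lowest value of 0.017, a median of 0.034 and a highest value of 0.084. The 5 mimic samples stood at -0.042, -0.044, -0.036, -0.064 and -0.048. All mimic samples were thus below all control samples, with control replicate 6 the highest and mimic replicate 4 the lowest. This average includes the genes called lower in the same samples, so it describes the shift by library and is no separate test. The 26 synthesis enzymes alone also separated, from 0.018 to 0.105 in control samples and from -0.092 to -0.030 in mimic samples. By role, the squalene-to-cholesterol, SREBP control, fatty acid, sterol handling and export groups each had at least 1 mimic sample within the control range, and so did the mevalonate group, in which mimic replicate 5 stood at 0.002 and the lowest control sample at 0.001.

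**Figure D2:**
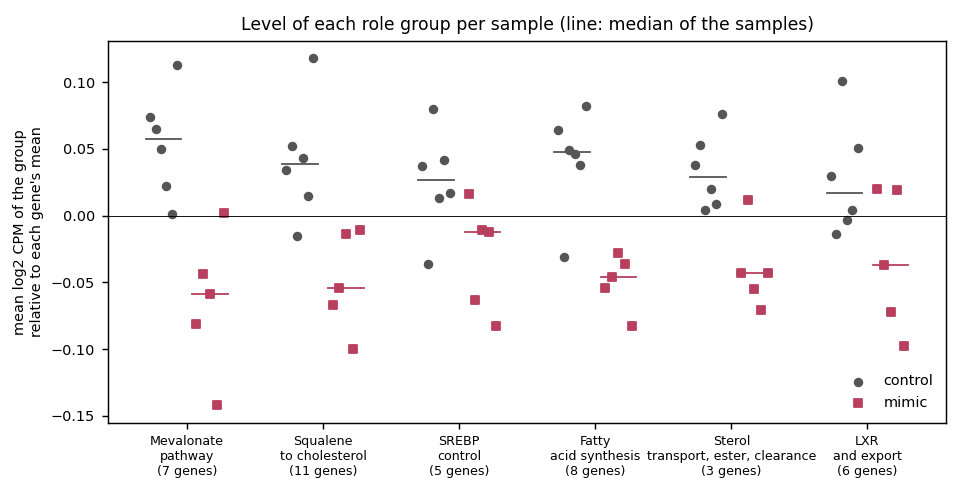
Mean log2 CPM of each role group relative to each gene's mean (y axis), for 6 control samples (circles) and 5 mimic samples (squares), with a line at the median of each group. The separation is clearest for the mevalonate and fatty acid groups and weakest for SREBP control and export, where the groups overlap widely.

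These are bulk cultures that hold glia beside neurons, and in bulk RNA fewer cells of a type and less RNA per cell cannot be told apart. The labelled cell type was borne out by neuron markers. The 10 genes summed to between 8761 and 8946 CPM in control samples and between 8532 and 8672 in mimic samples, again without overlap. Of these 10 neuron markers, 1 was called lower (Slc17a7), 8 were below 0 and 5 were lower at an unadjusted p under 0.05. The median log2 fold change of the neuron markers was -0.046. Astrocyte markers were also abundant. Their 10 genes summed to between 4950.2 and 5390 CPM in control samples and between 4543 and 4860 in mimic samples, so that the groups did not overlap, with 1 of 10 called lower. That gene was Slc1a2, the main glutamate transporter of astrocytes, at -0.18 on the log2 scale (SE 0.024, edgeR adjusted p = 9.95e-05). Of the 10 astrocyte markers 8 were below 0, with a median log2 fold change of -0.10, and 6 were lower at an unadjusted p under 0.05. The mean of Gfap was 731 CPM in control and 662 in mimic samples and that of Aldoc 414 and 369, both without a call, while Slc1a3 (1045 and 1046), Aldh1l1 (89.9 in both) and Gja1 (139 and 144) were not lower. The 8 fibroblast and mural markers summed to between 262 and 397 CPM in control and between 405 and 539 in mimic samples (1 called lower, Rgs5, although 6 of 8 were above 0, with a median log2 fold change of 0.42), the 6 proliferation markers to between 45.6 and 53.2 and between 55.0 and 66.4 (Top2a and Cdk1 called higher), and the 6 endothelial markers to between 33.2 and 41.3 and between 34.1 and 43.4 (Cdh5 called higher). The 12 microglial markers summed to between 28.0 and 30.5 and between 26.6 and 28.2 CPM, and the 10 markers of the oligodendrocyte lineage to between 335 and 404 and between 307 and 355, with 0 called in either list by edgeR (11 and 9 markers tested). At an unadjusted p under 0.05, 1 fibroblast and mural marker was lower and 6 were higher (Col1a2 at 0.56 and Dcn at 0.53 among them), and all 6 proliferation markers were higher. By the same measure 2 microglial markers were lower and 1 higher, and 3 oligodendrocyte markers were lower. DESeq2 called 1 neuron and 2 astrocyte markers lower, and 3 fibroblast and mural markers higher and 1 lower. It called 0 microglial markers, and 1 oligodendrocyte marker lower. No marker of any list was at 0 in all samples. The part of these cell types in the changes of the lipid genes was not tested.

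In the mevalonate pathway, which turns acetyl-CoA into farnesyl diphosphate, all 7 genes were below 0 and 4 fell. Mvd, the decarboxylase that yields isopentenyl diphosphate, measured 102.5 (lowest), 108.4 (median) and 110.0 (highest) CPM in control samples and 95.6, 101.6, 99.2, 98.8 and 92.7 CPM in mimic samples. The groups did not overlap, although the highest mimic sample came within 1 CPM of the lowest control. The log2 fold change of Mvd was -0.14 (SE 0.029, edgeR adjusted p = 0.00973). Mvk, mevalonate kinase, had 63.0, 64.7 and 68.1 CPM as lowest, median and highest control values and 59.3, 59.2, 63.6, 57.9 and 57.9 CPM in mimic samples. Mimic replicate 3 reached into the control range and the other 4 mimic samples were below it, and the log2 difference was -0.13 (SE 0.033, edgeR adjusted p = 0.0249). Pmvk, the kinase of the next step, had 58.9, 64.2 and 66.5 CPM in control samples and 56.6, 57.6, 58.1, 58.6 and 56.4 CPM in mimic samples. The mimic samples were tightly grouped just under the lowest control, and the log2 fold change was -0.14 (SE 0.035, edgeR adjusted p = 0.0231). Fdps, farnesyl diphosphate synthase, had 16.1, 17.1 and 18.1 CPM in control samples and 14.5, 15.8, 14.1, 14.7 and 15.4 CPM in mimic samples. Its groups did not overlap, and its log2 difference, -0.20 (SE 0.050, edgeR adjusted p = 0.0256), was the most negative of the pathway. Of the exon bases of Fdps, 26.7% are shared with a gene model on the same strand (Gm43738), so its counts are uncertain.

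The other 3 genes of the pathway did not pass. Hmgcs1, the synthase that makes HMG-CoA, ranged from 1669 to 1846 CPM in control and from 1584 to 1932 CPM in mimic samples, which spread more widely than the controls. Its log2 fold change was -0.038 with an interval of 2 SE from -0.13 to 0.053. An antisense gene model covers 12.1% of its exon bases. Acat2, the thiolase that joins acetyl-CoA units, had 97.0, 102.9 and 109.9 CPM in control and 97.6, 95.1, 101.4, 96.0 and 103.3 CPM in mimic samples. The groups of Acat2 overlapped, and its log2 fold change of -0.061 (SE 0.032) had an edgeR adjusted p of 0.363. Idi1, the isomerase, was low in both groups, at a log2 difference of -0.13 (SE 0.089, edgeR adjusted p = 0.548).

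Between squalene and cholesterol, all 11 genes were below 0 and 3 fell: Sqle, Lss and Sc5d. Sqle, squalene epoxidase, which catalyses a rate-limiting oxygenation, had 428, 445 and 456 CPM as lowest, median and highest control values and 401, 425, 419.5, 406 and 421 CPM in mimic samples. The groups of Sqle did not overlap, and its log2 fold change was -0.097 (SE 0.024, edgeR adjusted p = 0.0239). Lss, lanosterol synthase, which closes the sterol rings, had 125.8, 129.0 and 145.3 CPM in control samples and 118.1, 116.9, 125.2, 115.3 and 119.0 CPM in mimic samples. Control replicate 6 was far above the other controls, and the groups were still apart by less than 1 CPM. The log2 fold change of Lss was -0.14 (SE 0.033, edgeR adjusted p = 0.0168). Sc5d, a desaturase of a late step, had 92.0, 99.0 and 105.4 CPM in control samples and 86.0, 91.9, 86.9, 83.6 and 98.3 CPM in mimic samples. Mimic replicate 5 lay among the controls, and the log2 fold change of Sc5d was -0.15 (SE 0.038, edgeR adjusted p = 0.0295).

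Among the genes of this branch that missed the threshold, Msmo1, which removes the methyl groups of carbon 4 together with Nsdhl and Hsd17b7, had the smallest p. It had 252, 269 and 287 CPM in control samples and 242, 240.2, 266, 235 and 262 CPM in mimic samples. Mimic replicates 3 and 5 overlapped with the controls, and the log2 fold change was -0.12 (SE 0.035, edgeR adjusted p = 0.0597). Nsdhl and Hsd17b7 were close to it, at -0.093 (SE 0.028, edgeR adjusted p = 0.0686) and -0.13 (SE 0.039, edgeR adjusted p = 0.0627). Cyp51, the lanosterol demethylase, was at -0.077 (SE 0.034), and Tm7sf2, Ebp and Fdft1 lay between -0.074 and -0.044. Exons of Ctsb overlap 18.3% of those of Fdft1 on the opposite strand, and without a stated strand setting their reads cannot be told apart. Dhcr7, which completes the last reduction of one branch of the route, had a log2 fold change of -0.015 (SE 0.026), the value nearest to 0 of the branch.

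**Figure D3:**
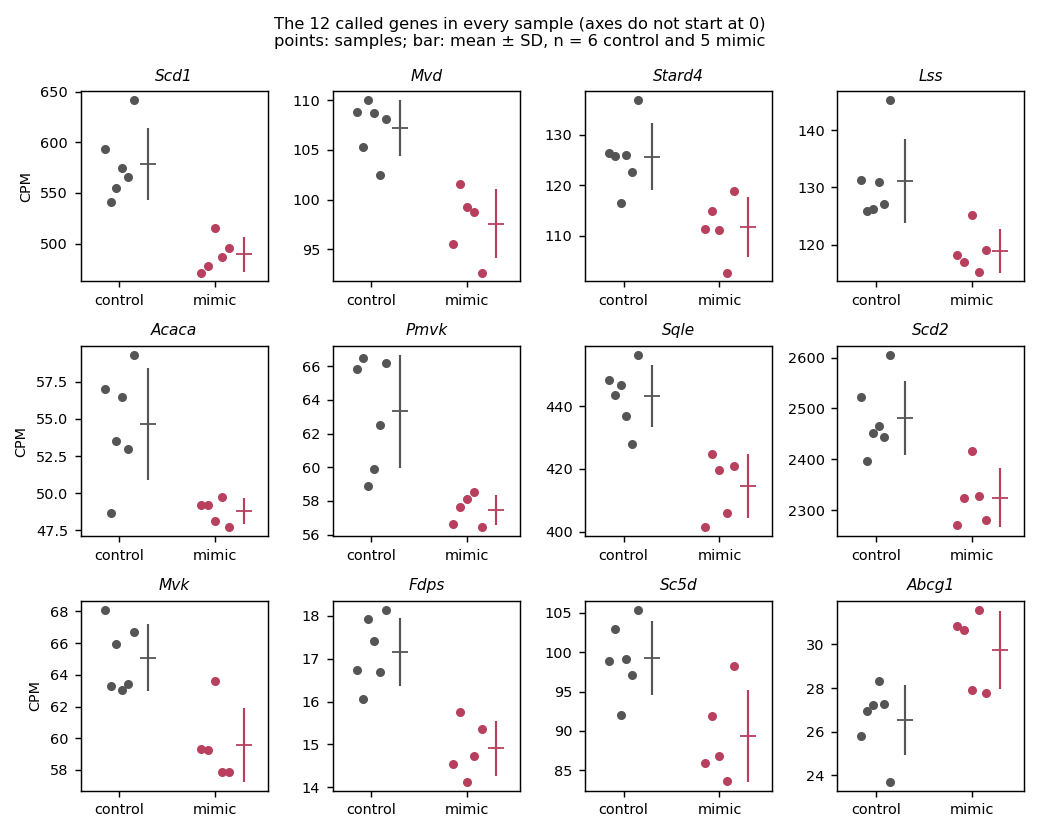
CPM of the 12 genes that passed the test, in every sample (points; 6 control, 5 mimic; the y axes differ and do not start at 0), with mean ± SD. The groups separate for Scd1, Mvd, Lss, Pmvk, Sqle and Fdps, and a sample of one group reaches the range of the other for Stard4, Acaca, Scd2, Mvk, Sc5d and Abcg1.

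The genes of fatty acid synthesis and desaturation were all 8 below 0, and 3 fell. Scd1, a stearoyl-CoA desaturase that makes monounsaturated fatty acids, had the largest change among the called genes of the list. It had 541, 570.0 and 642 CPM in control samples and 471, 478, 515, 487 and 495 CPM in mimic samples. Every mimic sample was below every control sample, and Scd1 fell by 15.4%, which is -0.24 on the log2 scale (SE 0.036, edgeR adjusted p = 0.00115). Scd2, the desaturase that is abundant in brain, had 2397, 2458 and 2605 CPM in control and 2271, 2324, 2417, 2327 and 2280.2 CPM in mimic samples. Mimic replicate 3 was within the control range, and the log2 fold change of Scd2 was -0.094 (SE 0.023, edgeR adjusted p = 0.0239). Scd1 and Scd2 are close paralogs, and how reads that map to several places were counted is not given in the sources used here. Acaca, acetyl-CoA carboxylase, the committed step of fatty acid synthesis, had 48.7, 55.0 and 59.3 CPM in control samples and 49.2, 49.2, 48.1, 49.7 and 47.7 CPM in mimic samples. Control replicate 2 lay within the narrow range of the mimic samples and the other controls above it, and the log2 difference was -0.17 (SE 0.039, edgeR adjusted p = 0.0180).

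The other fatty acid genes did not pass. Acly, which supplies cytosolic acetyl-CoA from citrate, had 459.2, 467 and 471 CPM in control samples and 436, 460.4, 454, 446 and 434 CPM in mimic samples. Only mimic replicate 2 reached the control range, and the log2 fold change was -0.064 (SE 0.023, edgeR adjusted p = 0.140). Fasn, the fatty acid synthase, stood at -0.077 on the log2 scale (SE 0.030, edgeR adjusted p = 0.190), and Elovl6, an elongase, one of -0.038 (SE 0.023). Of the desaturases of polyunsaturated fatty acids, Fads2 was at -0.048 (SE 0.025) and Fads1 at -0.005 (SE 0.025), the value nearest to 0 of the group, turning positive with upper-quartile scaling.

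Of the 5 genes that control the SREBP factors, 0 passed the edgeR test at an adjusted p under 0.05, and 0 passed with DESeq2. At an unadjusted p under 0.05, 2 of 5 were lower, Srebf1 and Insig1 (8.41% over all tested genes). Srebf1, which encodes the factor that favours fatty acid genes, had 62.2, 67.9 and 72.2 CPM in control samples and 66.0, 63.6, 63.1, 63.8 and 57.8 CPM in mimic samples. The groups overlapped, and the log2 fold change was -0.10 (SE 0.037, edgeR adjusted p = 0.150). Srebf2, which encodes the factor that favours sterol genes, had 389.7, 412 and 436 CPM in control samples and 419, 402, 399, 409 and 379 CPM in mimic samples. Its values overlapped widely, and its log2 fold change was -0.035 (SE 0.029), with an interval of 2 SE from -0.093 to 0.022. Insig1, itself a target of SREBP, had 142.7, 143.3 and 146.2 CPM in control samples and 139.5, 140.2, 139.4, 127.6 and 142.0 CPM in mimic samples. All mimic samples of Insig1 were below all controls, with mimic replicate 4 far below the rest, but the log2 fold change of -0.062 (SE 0.028) did not pass the test (edgeR adjusted p = 0.262). Scap and Insig2 were at -0.038 (SE 0.039) and -0.044 (SE 0.041). The messenger RNA of an SREBP factor does not measure its cleavage, which was not measured here.

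Among the genes that move, esterify or clear sterols, Stard4, a soluble carrier of cholesterol, fell. It had 116.5, 125.9 and 136.9 CPM in control samples and 111.3, 114.8, 111.2, 102.7 and 118.9 CPM in mimic samples. Mimic replicate 5 was above the lowest control and the other mimic samples were below all controls. Its log2 fold change was -0.17 (SE 0.037, edgeR adjusted p = 0.0122). Soat1, which esterifies cholesterol for storage, had 41.4, 41.75 and 46.3 CPM in control samples and 38.8, 42.6, 39.9, 38.4 and 39.3 CPM in mimic samples. It overlapped through mimic replicate 2 alone, and its log2 fold change of -0.096 (SE 0.038) had an edgeR adjusted p of 0.189. Cyp46a1, the neuronal hydroxylase that turns cholesterol into an oxysterol that leaves the brain, was 1 of the 3 genes above 0, at 0.047 (SE 0.033, edgeR adjusted p = 0.558).

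Of the 6 genes of LXR signalling and export, 1 rose and 0 fell with both edgeR and DESeq2, and 2 were lower at an unadjusted p under 0.05 (Nr1h3 and Apoe; 8.41% over all tested genes). Abcg1, a transporter that loads cholesterol onto lipoproteins, had 23.7, 27.1 and 28.3 CPM in control samples and 30.8, 30.6, 27.9, 31.6 and 27.8 CPM in mimic samples. Mimic replicates 1, 2 and 4 were above all controls and replicates 3 and 5 were within their range. Its log2 fold change was 0.17 (SE 0.047, edgeR adjusted p = 0.0446), the adjusted p nearest to the threshold among the called genes. Abca1, the transporter that forms nascent particles with apolipoproteins, had 122.7, 127.5 and 135.4 CPM in control samples and 135.5, 135.7, 121.5, 130.8 and 130.1 CPM in mimic samples. The groups overlapped and the log2 fold change was 0.034 (SE 0.031, edgeR adjusted p = 0.690). Apoe, which encodes apolipoprotein E, had 791, 822 and 913 CPM in control samples and 772, 801, 828, 779 and 726 CPM in mimic samples. These are reads of the cells' own transcripts, not the ApoE4 protein supplied with the particles. The log2 fold change of Apoe was -0.095 (SE 0.036, edgeR adjusted p = 0.185), with 3 mimic samples below all controls. The LXR receptor genes Nr1h2 and Nr1h3 were at -0.037 (SE 0.046) and -0.40 (SE 0.18, edgeR adjusted p = 0.284). Nr1h3 was the least expressed gene of the list, with 14 to 58 reads per sample, and its error was the widest of the list. Mylip, which encodes an LXR-induced ligase for lipoprotein receptors, was at -0.061 (SE 0.067).

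Per kilobase of exon, control levels of the list covered a broad range. Scd2 was highest with 454 CPM per kb, above 99.8% of tested genes, followed by Apoe with 390.0 and Hmgcs1 with 382, which differed by less than their spread (SD 20.8 and 15.9, n = 6). Scd1 followed with 118 and Fads2 with 104 CPM per kb. Nr1h3 was lowest with 0.456 CPM per kb. With the longest transcript as the length in place of all exons, Apoe (592) and Hmgcs1 (506) came before Scd2 (455). Among the called genes, Scd2 lay above 99.8%, Scd1 above 98.6%, Sqle above 97.6% and Mvd above 96.3% of tested genes in level per kb, while Acaca, at 3.20 CPM per kb, lay above 48.5%. The genes called lower thus came from both abundant and middling levels.

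Samples of a group also differed in ways that several genes shared. After the group means were removed, the log2 CPM of Sqle followed Soat1 most closely (Pearson r = 0.71 over 11 samples), then Cyp51 (r = 0.64) and Acat2 (r = 0.57), against a median r of 0.38 with the other genes of the list. Apoe followed Mvk (r = 0.86), Scd2 (r = 0.69) and Mvd (r = 0.60), against a median of 0.18. The points of these correlations share a library and its depth, and they are given as a description.

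The mimic samples were also examined for other genes of the same pathways. Of 66 further genes of sterol and fatty acid metabolism that were not in the list, 63 were tested, 1 was called lower and 0 higher by edgeR, and 38 were below 0, with a median log2 fold change of -0.018. At an unadjusted p under 0.05, 13 of 63 were lower and 1 higher (8.41% and 7.3% over all tested genes), and DESeq2 called 3 lower and 0 higher (2.0% and 1.25%). The gene that fell was Abca7, a lipid transporter, at -0.30 (SE 0.061, edgeR adjusted p = 0.00637), and averaged 13.4 ± 0.79 CPM with the control (SD, n = 6) against 10.9 ± 0.92 CPM with the mimic (SD, n = 5).

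SREBP acts at promoters together with factors that bind a CCAAT box, so the RefSeq promoter windows (GRCm38.p6, 250 bases before to 50 after each start, both strands) were searched for CCAAT, for the sterol regulatory element core TCACNCCAC and for the E-box CACGTG. Of the 40 genes, 32 had a window and 8 did not. CCAAT was found in 23 of the 32 genes (71.9%), and in 14 of 15 sterol synthesis enzymes (93.3%), against 41.1% of all 27025 genes with windows and 42.5% of the tested ones. It was held by 5 of the 6 genes that fell and had a window (83.3%, against 71.9% of the 32). Of those 6 genes, 0 held the core and 1 held the E-box. The core TCACNCCAC was found in 1 of the 32 genes (3.12%), Hmgcs1, against 1.44% of all genes. The E-box was found in 6 of 32 (18.8%), against 8.09% of all genes and 11% of the tested ones. The windows of Mvd and Lss are shown around their CCAAT boxes because both genes fell, beside that of Hmgcs1, which holds the core and did not pass the test; capitals mark the motifs, ATTGG being CCAAT on the other strand. They lie at chr8:122443430-122443497 (minus strand), chr10:76531528-76531562 (plus strand) and chr13:119690101-119690380 (plus strand).
Mvd: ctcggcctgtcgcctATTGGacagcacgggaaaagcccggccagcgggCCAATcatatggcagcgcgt
Lss: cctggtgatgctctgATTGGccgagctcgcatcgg
Hmgcs1: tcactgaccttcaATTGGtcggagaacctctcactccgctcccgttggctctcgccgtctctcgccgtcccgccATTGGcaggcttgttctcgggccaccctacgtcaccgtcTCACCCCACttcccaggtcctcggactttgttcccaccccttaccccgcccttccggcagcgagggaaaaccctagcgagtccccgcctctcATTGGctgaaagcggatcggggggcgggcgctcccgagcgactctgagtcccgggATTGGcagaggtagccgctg
Mvd held 2 CCAAT boxes in opposite orientations and Lss 1, while Hmgcs1 held 4 and the core. These are matches of letters, not measured binding, and a window without one says nothing of the factor.

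Which genes passed depended on single libraries, while the direction of the list did not. Of the 12 genes, Mvd, Scd1 and Stard4 passed under all 18 alternative settings. With a single library left out, 4 genes passed without control replicate 1, the deepest sample (Lss, Mvd, Scd1 and Stard4). Without control replicate 6, 5 passed (Acaca, Lss, Mvd, Scd1 and Stard4), and 5 also passed without mimic replicate 2 (Fdps, Mvd, Scd1, Sqle and Stard4) or without mimic replicate 4 (Acaca, Mvd, Pmvk, Scd1 and Stard4). Without mimic replicate 1, 6 passed (Acaca, Lss, Mvd, Mvk, Scd1 and Stard4), and without control replicate 4, 8 passed, of which 7 were lower (Lss, Mvd, Mvk, Pmvk, Scd1, Sqle and Stard4). The call of Abcg1 was lost without control replicate 1, 5 or 6 and without mimic replicate 1, 2 or 4, and the call of Sc5d was lost in 9 of the 11 fits with a sample left out. Across these 11 fits between 35 and 37 of the 40 genes remained below 0, and the median log2 fold change lay between -0.087 and -0.062. With a replicate block on the label numbers, which did not pair the samples, 3 genes passed (Mvd, Scd1 and Stard4) and 37 were below 0.

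**Figure D4:**
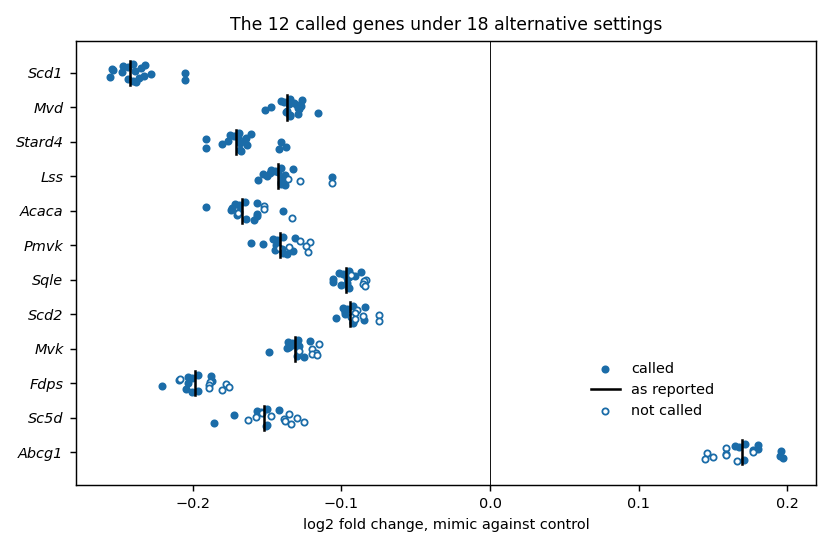
Log2 fold change of the 12 genes that passed the test (x axis) under 18 alternative settings (points; filled where the adjusted p was under 0.05), with the reported value as a black line. No point crosses 0, and Scd1, Mvd and Stard4 are filled in all settings.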

How the data were processed

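RNA of 6 control and 5 mimic samples was sequenced as poly(A) libraries with 50 bp single-end reads. Per the labels and the study's methods, the authors checked reads with FastQC 0.11.5, mapped them with STAR 2.5.2b to mm10 (GRCm38) and made raw counts per Ensembl gene with featureCounts (Subread 1.5.1). The annotation release and the strand and multimapping options are not given in the sources used here. A second table, normalized signal deposited by the authors, has in each column the counts divided by 1 factor. All its columns had a sample (0 did not), and it served 1 alternative. Total counts were 17287168 to 48091231 per sample, so a count of 0 allows up to 0.0624 to 0.174 CPM (3 counts; counting error only). Correlations between replicates of log2 CPM were at least 0.993, and no pair agreed within sampling noise (chi-square per degree of freedom at least 1.23).

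The test covered 17365 genes that reached 5 counts in 50% or more of the samples. It was edgeR's quasi-likelihood test, two-sided (edgeR 4.0.16 under R 4.3.3; TMM, robust, group as the sole term, Benjamini-Hochberg over all tested genes), and genes were called at an adjusted p under 0.05. The filter and threshold follow the study, which used DESeq2. The script was tested on simulated data. CPM used TMM-scaled library sizes, and intervals are 2 SE. Of 48709 genes, 48349 matched GENCODE M21, which gave symbols, exons and 3′ UTRs; RefSeq gave microRNA and promoter sequences, and the oligonucleotide letters came from the study's supplement. Alternatives were other scaling factors, DESeq2 1.42.0, other count filters, each sample left out, a replicate block and limma 3.58.1 on log2(normalized value + 1).

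The genes, roles and other lists were chosen with earlier results of these data known. All 40 genes are named. Values by sample (each mimic sample; the lowest, median and highest of the 6 controls) are given for the called genes, for the uncalled gene with the smallest p in each role group and for Srebf1, Srebf2, Insig1, Apoe and Abca1. Some further genes of these pathways are not reported here singly.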

Additional observations from a re-analysis of the deposited data

Results flagged for a closer look

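Each of the 40 genes was examined in each group for a sample far from the others. The measure was the gap to the nearest sample as a share of the group's range, both taken in log2 CPM. The CPM values below are given for the level. Of 80 such series 7 stood out on this log2 scale, by a share above 0.625 for 6 samples or above 0.71 for 5, where chance gives about 4. Among control samples, replicate 6 was the highest for Lss (145 against 131 CPM in the next sample, a gap of 0.709 of the range), Soat1 (46.3 against 42.7 CPM, 0.730) and Insig1 (146 against 144 CPM, 0.638). Among mimic samples, replicate 3 was the highest for Mvk (63.6 against 59.3 CPM, 0.740) and Tm7sf2 (60.7 against 54.0 CPM, 0.836), and exons of Tm7sf2 overlap those of Vps51 on the same strand over 12.1% of their length. Mimic replicate 4 was the lowest for Insig1 (127.6 against 139.4 CPM, 0.830), and mimic replicate 2 the lowest for Insig2 (28.7 against 32.8 CPM, 0.934). Without control replicate 6 the call of Lss was kept, and without mimic replicate 3 that of Mvk was kept.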

How the results depend on the processing

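Of 720 values (40 genes under 18 alternatives), 651 kept their direction and their side of the threshold, 56 lost the call, 8 gained one and 5 changed sign. The log2 fold change of Fads1 turned positive with upper-quartile scaling (0.0049) and, with samples left out, ranged from -0.0109 to 0.011 (positive without control replicate 3 or mimic replicate 5). That of Dhcr7 ranged from -0.0256 to 0.0051 (positive without mimic replicate 4) and that of Nr1h2 from -0.0636 to 0.0094 (positive without mimic replicate 5). None of the 3 had passed the test. Genes of the list called numbered 12 with DESeq2, with both other scalings and with the stricter filter, 16 without a count filter (Apoe, Hsd17b7, Msmo1 and Nsdhl added; 785 genes called over the whole table against 495), and 11 with limma on the authors' table, which left out Abcg1 and called 0 higher. With single samples left out, 4 to 14 were called, 4 to 13 of them lower and 0 to 1 higher, while calls over the whole table ran from 218 to 491. The replicate block, for which same-numbered samples correlated at -0.023 to 0.016 (5 pairs) and so were not paired, left 3 called, 3 lower and 0 higher (328 over the whole table); it also drops control replicate 6, and the part of that in the lost calls was not tested apart from the fit without that sample (5 called). Further pathway genes called numbered 4 without a count filter, 3 with DESeq2 and 1 to 3 with a sample left out, against 1. Upper-quartile scaling moved the share of lower calls over the whole table from 62% to 49.1% and the median of all genes to 0.010, and 36 of the 40 genes were then below 0. The 3′ UTR of any transcript in place of the longest left 7 genes of the list with a seed match. Genes of few reads, chiefly Nr1h3 (14 to 58 reads), are limited by depth.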
